A study of Mus musculus with 7 samples.

Results

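A set of 10 Wnt ligands and modulators was followed on arrays of mouse testis, primary Sertoli cells and the TM4 line. In each comparison of knockout with wild-type Sertoli cells 7 of them were measured. Wnt4 was the 1 gene that stood at least 2-fold higher on the Sertoli cell arrays labelled ERM knockout. The set holds 10 genes: the ligands Wnt4, Wnt5a, Wnt5b, Wnt6 and Wnt11, the R-spondin Rspo1, the inhibitors Dkk3, Sfrp1 and Sfrp2, and the intracellular feedback gene Axin2. They were chosen by their place in the Wnt pathway, with the ratios of these arrays already known, so that every value below is a description. All probe sets that the platform annotation ties to exactly 1 of the 10 symbols were kept. This gave 22 probe sets on the Sertoli and TM4 table, of 34945 probe sets for 18193 genes, and 10 on the testis table, of 10833 probe sets for 8251 genes.

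Wnt proteins are secreted lipid-modified ligands that bind Frizzled receptors. In the canonical branch they stabilise beta-catenin, which acts with TCF and LEF factors on target genes such as Axin2, whereas ligands such as Wnt5a and Wnt11 are best known for beta-catenin-independent signalling. Sfrp proteins bind Wnts outside the cell, R-spondins raise Wnt receptor levels, and Dkk proteins mostly act at the co-receptors. In the mouse fetal gonad Wnt4 and Rspo1 are known for ovarian development, and the Sertoli cell programme under Sox9 opposes them.

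Groups were ERM knockout and wild-type whole testis at 4 weeks, primary Sertoli cells of ERM knockout at 4 weeks, of ERM knockout at 10 weeks and of wild type at 4 weeks, and TM4 cells with and without transfection of ERM. ERM is an ETS-family transcription factor encoded by Etv5, Sertoli cells are the somatic nurse cells of the seminiferous tubule, and TM4 is an immortal mouse line of Sertoli origin. The knockout allele, strain, purity of the Sertoli preparations, number of animals pooled and the transfection construct were not given in the sources used here. Each group had 1 array (7 in all), so no value has a replicate error, no test across samples was possible. Precision is limited by how few arrays there were.

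Intensities were scaled so that each array had a trimmed mean of 500, and values below a floor of 100 were set to 100. A gene with 1 array of a pair below the floor gives a bound and is counted as measured. With both arrays below it no ratio is given. Probe sets reaching that floor made up 72.02% to 77.0% on the 5 Sertoli and TM4 arrays and 82.1% and 82.2% on the testis arrays. The 3 Etv5 probe sets were not lower on the arrays labelled knockout, with knockout to wild-type ratios of 1.05 to 1.28 at 4 weeks and 1.23 to 1.56 at 10 weeks. The part of the gene deleted is not given, so the labels cannot be checked by these values. On the 4-week knockout array the 5', middle and 3' probe sets of 18S ribosomal RNA read 4551, 3037 and 1966. They read 352, 347 and 587 on the 10-week knockout array, and 349, 297 and 666 in wild type. The 4-week knockout array thus stood apart in this control. Its part in the ratios that use this array, that of Wnt4 included, was not tested. Sertoli markers fitted the label of the primary cells, with 14 of 14 measured markers at or above the floor on the 4-week knockout array, 13 on the 10-week knockout array and 14 on the wild-type array. Their summed intensity was 46154 in wild-type Sertoli cells, against 4014 in TM4 with ERM and 4033 without it, where 11 of the 14 reached the floor on each array. Of the transcription factors among these markers, Wt1 and Nr5a1 were under the floor on each TM4 array, and Sox9 read 150 with ERM and 95.1 without it. Gata4, Gata1 and Rhox5 were above the floor, at 169, 454 and 323 with ERM and 178, 406 and 327 without it. These were named after their values were seen. Of the 14 markers, 11 were at least 2-fold higher in wild-type Sertoli cells than in untransfected TM4 and 2 lower, Amh (322 in Sertoli cells, 651 in TM4) and Espn (140.4 in Sertoli cells, 302 in TM4).

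In Sertoli cells Wnt4 was measured by 2 probe sets that gave the same direction. Probe set 1450782_at read 1401 in knockout cells at 4 weeks and 913 in knockout cells at 10 weeks, against 325 in wild-type cells at 4 weeks. Probe set 1441687_at read 723 in knockout cells at 4 weeks and 711 in knockout cells at 10 weeks, against 315 in wild-type cells. Both knockout arrays were thus above the wild-type array on both probe sets. The knockout to wild-type ratio was 4.32 and 2.30 at 4 weeks, and 2.81 and 2.26 for knockout at 10 weeks over wild type at 4 weeks. The 10-week ratio mixes genotype and age, and both ratios share the wild-type array, so they are not independent of each other.

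The only error estimate is the spread between probe sets of the same gene on the same arrays. For genes bright on both arrays it was 0.20 log2 units (SD, 2262 genes) at 4 weeks and 0.18 (2182 genes) for the 10-week comparison, against Wnt4 log2 ratios of 2.11 and 1.20 at 4 weeks and 1.49 and 1.17 at 10 weeks. Wnt4 is dimmer than that class on the wild-type array. Over all genes at or above the floor on both arrays the spread was 0.32 (6510 genes) at 4 weeks and 0.31 (6498 genes) for the 10-week comparison. The Wnt4 probe sets themselves lay 0.91 and 0.32 log2 units apart. None of these values covers animals or preparations. At 4 weeks 1 of 7 members measured was at least 2-fold higher, where 0.681% of 15860 genes were, and none was at least 2-fold lower, where 3.18% were. At 10 weeks over wild type the count was again 1 of 7 members higher, with 1.62% of 15911 genes higher and 4.22% lower. Wnt4 also met a stricter rule, that every detected probe set of a gene with at least 2 be 2-fold higher, which 0.0834% of 7195 genes met at 4 weeks and 0.442% of 7243 genes at 10 weeks. These contrasts were known when the genes were chosen, so the counts are read only as a description.

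**Figure D1:**
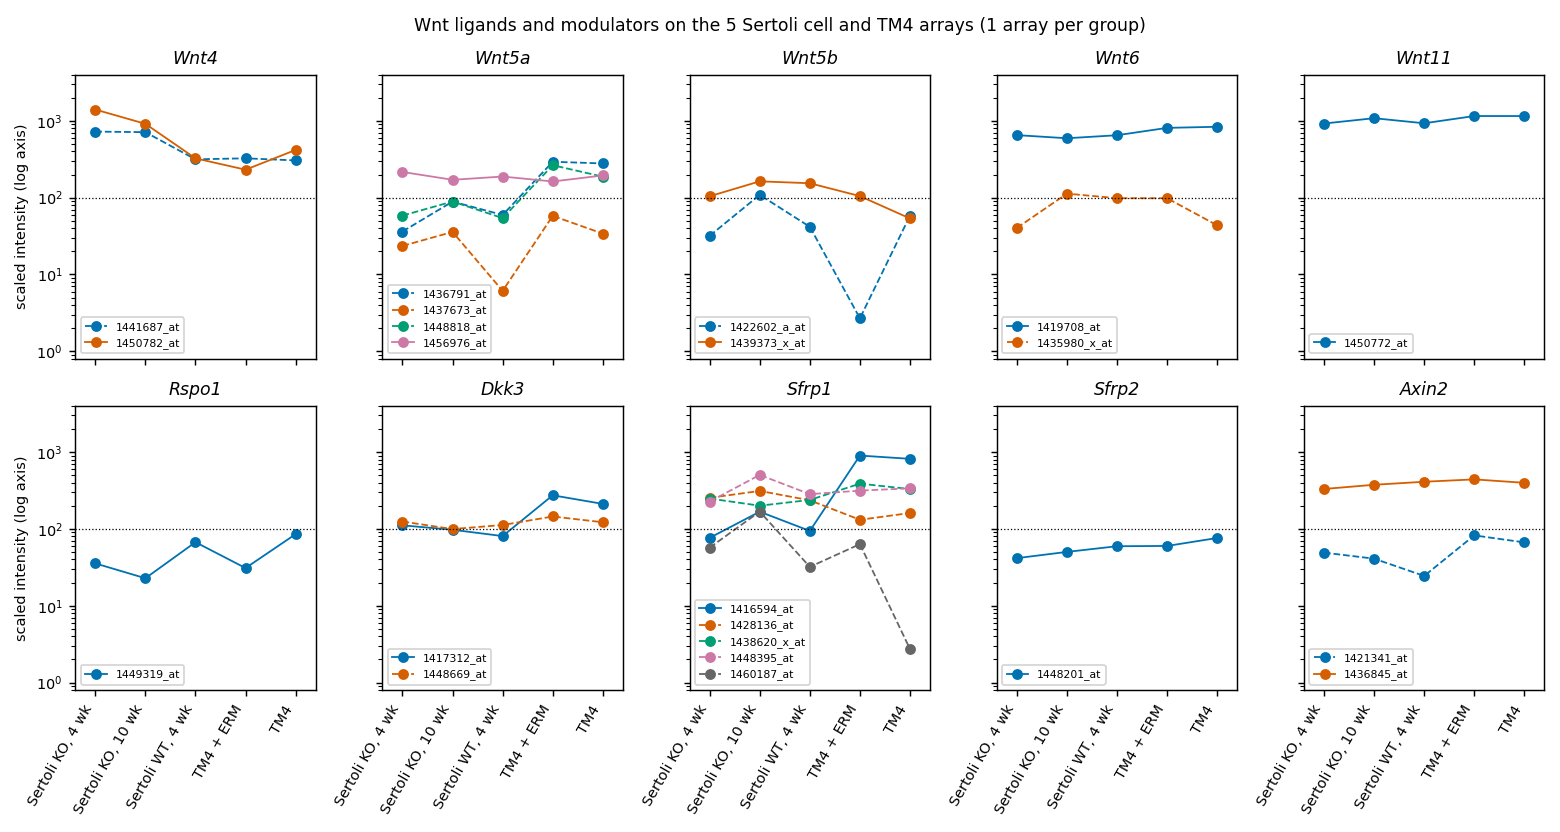
Scaled intensity (log axis) of the 10 genes on the 5 Sertoli cell and TM4 arrays, with 1 point per probe set and array and a line joining the points of a probe set, solid for the brightest probe set of the gene. The dotted line is the floor of 100. Both Wnt4 probe sets are highest on the 2 knockout Sertoli arrays, while Wnt6 (1419708_at) and Wnt11 stay between 593 and 1154 on all 5 arrays.

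Marker levels of other cell types moved between the same arrays, and their part in the Wnt4 ratio was not tested. In these bulk samples fewer cells of a type and less RNA per cell cannot be told apart. The summed intensity of the 14 Sertoli markers was 1.19 times the wild-type sum in knockout cells at 4 weeks and 1.09 times at 10 weeks. Clu gave the largest part, and without it the sums were 37781 and 33771 in knockout at 4 and 10 weeks and 30138 in wild type. The largest log2 ratios of single Sertoli markers at 4 weeks were 1.19 (Espn) and 0.93 (Gata4), beside 2.11 and 1.20 for Wnt4. Over the 14 markers the median was 0.30 at 4 weeks, with 13 within 2-fold, and 0.16 at 10 weeks, with all 14 within 2-fold. At 10 weeks Espn stood at -0.49 and Gata4 at 0.86. Macrophage markers (13 of 13 on the table) summed to 4908 in knockout at 4 weeks and 8790 in knockout at 10 weeks, against 12723 in wild type. Leydig markers (5 of 8 on the table) summed to 3731 at 4 weeks and 6214 at 10 weeks in knockout, against 2529 in wild type, and all 5 were at or above the floor on each array. Fibroblast markers (9 of 9) summed to 6510 and 10775 in knockout at 4 and 10 weeks and to 11568 in wild type.

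Granulosa cell markers, of the ovarian counterpart of Sertoli cells, were summed over the 5 of 6 markers on the table. The sum was 3886 in knockout at 4 weeks and 2729 at 10 weeks, against 4093 in wild type. Most of it was Fst, and without Fst the direction turned, with 818 and 817 in knockout at 4 and 10 weeks and 765 in wild type. Foxl2, the granulosa transcription factor, read 439 and 466 in knockout at 4 and 10 weeks and 373 in wild type, and Bmp2 lay below the floor on all 3 arrays. Markers of mesothelial and duct epithelium (10 of 10) summed to 20977 in knockout at 4 weeks, 1993 at 10 weeks and 2514 in wild type, and without Vil1 to 2940, 1825 and 2373. Peritubular myoid markers (8 of 8) stood at 1.21 and 1.599 times the wild-type sum, but without Acta2 they summed to 1626 and 1936 in knockout at 4 and 10 weeks and 1681 in wild type. Endothelial markers (8 of 8) stood at 1.13 and 1.61 times the wild-type sum. Spermatocyte markers (10 of 10) summed to 8151 in knockout at 4 weeks and 1405 at 10 weeks, against 12264 in wild type. Spermatid markers (10 of 10) summed to 17178 and 5408 in knockout at 4 and 10 weeks and 12410 in wild type, and spermatogonial markers (9 of 10) to 8792, 5462 and 7399. Without Id4 the spermatogonial sums were 4194 and 3643 in knockout and 4561 in wild type.

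The window around the annotated Wnt4 start is shown because Wnt4 is the member that differed and ERM is a DNA-binding factor. Windows of Wnt6 and Wnt11, whose brightest probe sets were nearly level between the same arrays, are shown beside it. Each runs from 250 bases before to 50 bases after a RefSeq start in GRCm38.p6, on the gene's strand, and capitals mark matches on either strand to the ETS core GGAA or to CTTTGA, the core bound by TCF factors. RefSeq windows were matched for 7 of the 10 members, and Wnt5a, Dkk3 and Sfrp1 are named only.
Wnt4, chr4:137277385-137277684, plus strand: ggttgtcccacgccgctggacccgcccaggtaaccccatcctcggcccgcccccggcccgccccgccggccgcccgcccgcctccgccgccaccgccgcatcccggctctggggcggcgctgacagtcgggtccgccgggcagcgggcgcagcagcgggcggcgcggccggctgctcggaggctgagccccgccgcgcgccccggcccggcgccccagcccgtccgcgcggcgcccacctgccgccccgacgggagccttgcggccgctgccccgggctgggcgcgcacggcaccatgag
Wnt6, chr1:74771642-74771941, plus strand: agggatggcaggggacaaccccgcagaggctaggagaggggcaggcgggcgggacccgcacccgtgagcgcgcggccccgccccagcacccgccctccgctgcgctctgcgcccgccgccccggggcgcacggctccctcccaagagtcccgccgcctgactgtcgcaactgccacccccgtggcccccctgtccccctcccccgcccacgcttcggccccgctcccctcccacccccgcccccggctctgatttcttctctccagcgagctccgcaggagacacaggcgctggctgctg
Wnt11, chr7:98834862-98835161, plus strand: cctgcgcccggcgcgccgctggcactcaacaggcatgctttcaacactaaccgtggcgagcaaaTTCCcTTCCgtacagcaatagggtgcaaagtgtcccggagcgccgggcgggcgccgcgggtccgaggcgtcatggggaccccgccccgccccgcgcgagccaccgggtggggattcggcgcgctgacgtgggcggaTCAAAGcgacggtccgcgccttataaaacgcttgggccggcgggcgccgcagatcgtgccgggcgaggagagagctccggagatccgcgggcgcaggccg

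Neither the Wnt4 nor the Wnt6 window held a GGAA or CTTTGA match, while the Wnt11 window shown held GGAA with first bases 186 and 181 before the start and CTTTGA at 50 before it, all on the reverse strand. Of 32851 such windows in the mouse table, 96.0% held at least 1 GGAA match, with a median of 3 matches, and 16.0% held CTTTGA. The longer ETS form CCGGAA, which contains GGAA, was in 14.9% of windows and in none of these 3. A second RefSeq start of Wnt11 had a window at chr7:98838595-98838894, plus strand, with 3 GGAA matches, 1 of them within a CCGGAA match whose first base was 203 before the start, and no CTTTGA. Base composition differed too, since 84.3% of bases were G or C in the Wnt4 window, 76.7% in that of Wnt6 and 71.3% in that of Wnt11, against a median of 52.7% over all windows. A missing match says only that these letters are not in the window. Single windows of Rspo1, Sfrp2 and Axin2 held 3, 1 and 1 GGAA matches, and the 3 windows of Wnt5b held 2 to 9.

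The other ligands did not follow Wnt4 in Sertoli cells. Wnt6 (1419708_at), an epithelial ligand, read 651 in knockout at 4 weeks and 593 at 10 weeks, against 649 in wild type. The other Wnt6 probe set, 1435980_x_at, read 40.3, 113 and 98.3 on these arrays in the same order, passing the floor at 10 weeks only. In TM4 it read 98.2 with ERM and 43.6 without it, below the floor. Wnt11, a ligand of convergent extension and kidney branching, read 922 and 1081 in knockout at 4 and 10 weeks and 928 in wild type. The 4-week log2 ratios of Wnt6 (1419708_at) and Wnt11 were 0.00 and -0.01, so both stood level with wild type on these probe sets. Wnt5a, which guides cell movement and outgrowth, read 216 and 171 in knockout at 4 and 10 weeks and 188 in wild type on 1456976_at, the 1 of its 4 probe sets that reached the floor there. Wnt5b (1439373_x_at) read 104 in knockout at 4 weeks and 163 at 10 weeks, against 154 in wild type, a log2 ratio of -0.56 at 4 weeks and 0.08 at 10 weeks. Its other probe set, 1422602_a_at, read 31.8, 109 and 41.7 on the same 3 arrays, so that it passed the floor at 10 weeks only. Such dim values, close to the floor, do not set an order.

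Among the modulators that gave a ratio, none was 2-fold apart from wild type in Sertoli cells on its brightest probe set. Over all genes 0.681% were higher and 3.18% lower at 4 weeks, and 1.62% and 4.22% at 10 weeks. A count of 0 among so few is near those shares. On the brightest probe sets only Axin2 was above the floor on all these arrays, while Dkk3 at 4 weeks and Sfrp1 at 10 weeks gave bounds. Rspo1 read 35.6 and 22.8 in knockout at 4 and 10 weeks and 67.2 in wild type, and Sfrp2 read 41.6, 50.2 and 59.5 on these arrays in the same order. Both lay below the floor everywhere on this table and give no ratio. Dkk3, a divergent Dickkopf protein, stayed between 80.7 and 125 on its 2 probe sets over the 3 Sertoli arrays. Axin2 (1436845_at), a scaffold of the beta-catenin destruction complex and a target of canonical signalling, read 331 and 375 in knockout at 4 and 10 weeks, against 411 in wild type. Its log2 ratios were -0.31 and -0.13, so the knockout arrays with high Wnt4 were not higher for Axin2. The other Axin2 probe set was below the floor on all 5 arrays.

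Sfrp1, a secreted Wnt-binding inhibitor, had 5 probe sets that did not behave alike. On 1448395_at it read 227 in knockout at 4 weeks and 504 at 10 weeks, against 283 in wild type. The 10-week array was thus 2.22 times the 4-week knockout array and 1.78 times wild type. Probe sets 1416594_at and 1460187_at, passed the floor at 10 weeks only, at 167 and 168, which gives ratios of at least 1.67 and 1.68 over either 4-week array. By contrast 1428136_at read 254 and 312 in knockout at 4 and 10 weeks and 236 in wild type, and 1438620_x_at read 248, 200.4 and 238. On 4 of 5 probe sets the 10-week knockout array was therefore the highest Sertoli array, and on 1 it was the lowest.

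Between the knockout ages, 10 against 4 weeks, none of 8 members measured was 2-fold apart on its brightest probe set, where 4.19% of 15849 genes passed that mark upward and 3.51% downward at 10 weeks. Wnt4 had log2 ratios of -0.62 on 1450782_at and -0.02 on 1441687_at, so its probe sets differ on whether the level was lower at 10 weeks. Wnt5b stood at 0.65 and the remaining ratios of brightest probe sets lay between -0.34 for Wnt5a and 0.74 for Sfrp1, which is a lower bound. The median over the 8 members was 0.02, against -0.03 over all genes.

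**Figure D2:**
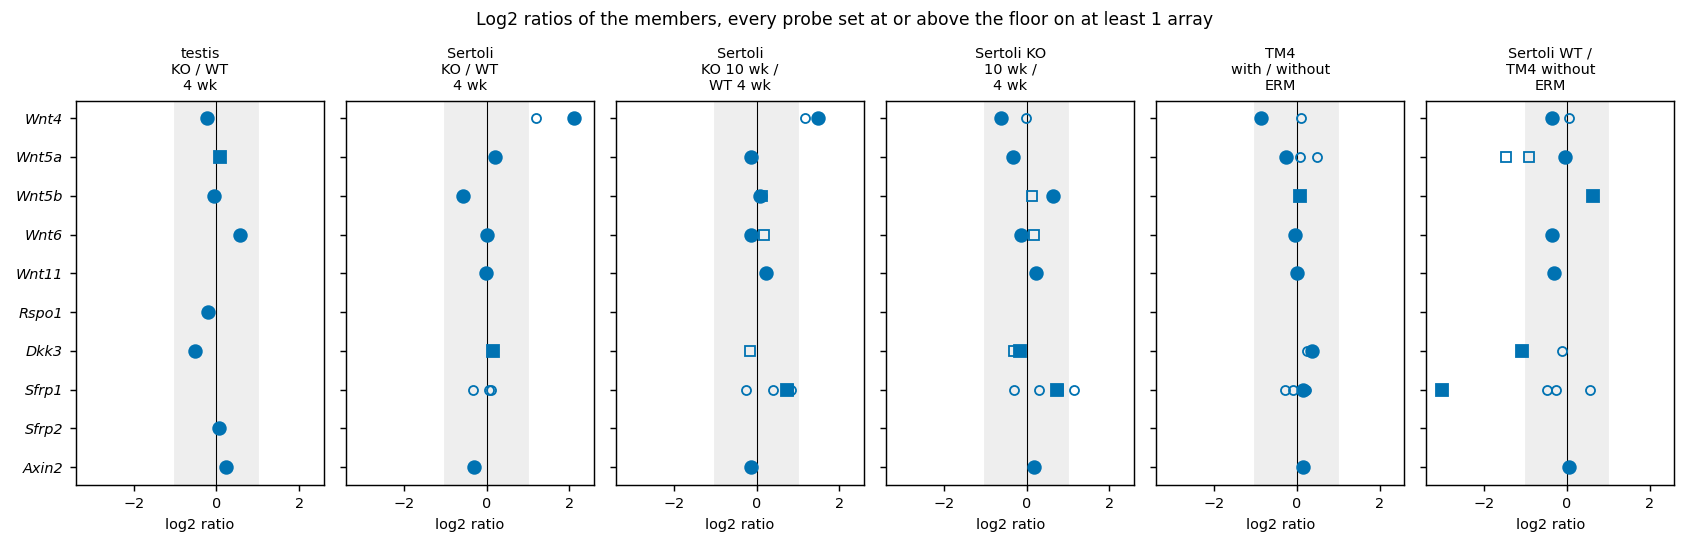
Log2 ratios of the 10 genes (rows) in 6 comparisons (columns), with a filled symbol for the brightest probe set of a gene and open symbols for its others. Squares are bounds with 1 array below the floor, probe sets below the floor on both arrays are left out, and the grey band spans 2-fold. Both Wnt4 probe sets lie outside the band in knockout over wild-type Sertoli cells, and neither does in testis or TM4.

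Between TM4 cells with and without transfection of ERM no member was 2-fold apart. The 3 Etv5 probe sets read 1.13, 1.17 and 1.51 times as high with ERM as without it. The arrays thus show only a small rise of Etv5 RNA, and how much ERM was added is not known from them. None of 8 members measured was called, where 0.303% of 16158 genes were higher and 0.421% lower by that measure. Wnt4 read 231 with ERM and 417 without it on 1450782_at (log2 ratio -0.85), but 325 with ERM and 305 without it on 1441687_at (0.09). The ratio on 1450782_at stayed within 2-fold, and the other probe set was level. Any link between these TM4 ratios and the Sertoli knockout ratios was not tested. Wnt11 read 1154 with and 1153 without ERM, and Wnt6 809 with and 836 without. Sfrp1 (1416594_at) read 901 with and 816 without ERM, and Axin2 441 with and 398 without. Dkk3 (1417312_at) read 274 with and 211 without ERM, at a log2 ratio of 0.37, with 0.25 on its other probe set. Wnt5a had log2 ratios of -0.26, 0.07 and 0.49 on 3 probe sets, which disagree in sign. Wnt5b (1439373_x_at) read 105 with ERM and 53.5 without it, so that its log2 ratio was 0.07 as a bound, and 0.97 when the floor was lowered from 0.2 to 0.1 of the scaled mean. The spread between probe sets of a gene was 0.15 log2 units for bright genes here (2265 genes) and 0.25 over all genes above the floor (6749 genes), and the Wnt4 probe sets lay 0.94 apart.

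In whole testis at 4 weeks Wnt4 was not higher on the knockout array. It read 244 in knockout and 284 in wild type (103238_at, log2 ratio -0.22). Wnt6 read 301 in knockout and 203 in wild type (0.57), and Dkk3 146 in knockout and 209 in wild type (-0.52), and these were the members farthest apart in each direction. Wnt5b read 588 and 609, Sfrp2 393 and 377, Axin2 446 and 379, and Rspo1 126 and 144, in knockout and wild type in that order. Wnt5a passed the floor in knockout only, at 107 against 76.6, and Wnt11 (82.8 and 57.0) and Sfrp1 (62.5 and 74.0) lay below it on both arrays. None of 8 members measured was 2-fold apart, where 0.532% of 7515 genes were higher and 0.852% lower by as much. The spread between probe sets of a gene was 0.25 log2 units for bright genes (295 genes) and 0.29 over all above the floor (1344 genes). On this knockout array fibroblast markers summed to 1.49, macrophage to 1.35, Sertoli to 1.24 and Leydig to 1.17 times the wild-type sum. Peritubular myoid markers stood at 1.15, spermatid at 1.12, spermatocyte at 1.03, endothelial and granulosa at 1.02, and mesothelial and duct epithelial at 0.99 times. Spermatogonial markers stood at 0.78 times. Some sums turned without their largest gene. Spermatocyte markers (5 of 10 on the table) without Pgk2 summed to 2296 in knockout and 3231 in wild type. Granulosa markers without Fst summed to 962 in knockout and 1125 in wild type, and myoid markers without Actg2 to 4358 and 4441. The other lists kept their direction. The part of these in the member ratios was not tested. The testis arrays carry other probe sets than the Sertoli arrays, so intensities were not compared between them.

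**Figure D3:**
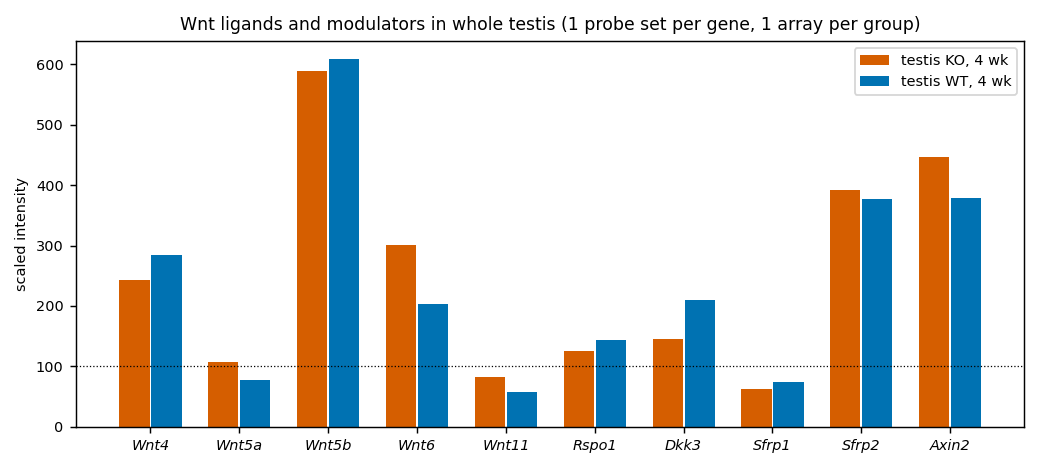
Scaled intensity of the 10 genes in knockout (orange) and wild-type (blue) whole testis at 4 weeks, 1 probe set and 1 array per bar. The dotted line is the floor of 100. Wnt6 is higher in knockout (301 against 203) and Dkk3 lower (146 against 209), both within 2-fold.

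Between wild-type Sertoli cells and untransfected TM4 cells, 2 members were at least 2-fold lower in Sertoli cells on their brightest probe set. Sfrp1 (1416594_at) read 94.1 in Sertoli cells and 816 in TM4, at least 8.16-fold lower in Sertoli cells, but its other probe sets had log2 ratios of -0.47, -0.25 and 0.55. Dkk3 (1417312_at) read 80.7 in Sertoli cells and 211 in TM4, at least 2.11-fold lower, with a log2 ratio of -0.12 on the second probe set. No member was at least 2-fold higher. The count of 2 of 8 members lower stands beside 16.1% of 16916 genes lower and 17.8% higher, and it rests on 1 probe set per gene. The count was 0 on the deposited scale, 0 with the mean over probe sets and 0 when every detected probe set had to pass. Wnt5a probe sets 1436791_at and 1448818_at read 59.5 and 54.1 in Sertoli cells, against 279 and 187 in TM4. The first of these was at least 2.79-fold lower in Sertoli cells, while the brightest Wnt5a probe set, 1456976_at, read 188 in Sertoli cells and 194 in TM4. Wnt4 (325 in Sertoli cells, 417 in TM4), Wnt6 (649 and 836), Wnt11 (928 and 1153) and Axin2 (411 and 398) were within 2-fold. The deposited scales of the cell types differ, and on the values as deposited Wnt4, Wnt6 and Wnt11 had log2 ratios of 0.34, 0.34 and 0.39, with the sign turned from -0.36, -0.37 and -0.31.

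The rest of the Wnt pathway was taken from lists of 94 genes that are not members, of which 92 were on the Sertoli and TM4 table. At 4 weeks none of 79 measured was at least 2-fold higher in knockout Sertoli cells and 2 (2.53%) were lower. Over all genes 0.681% were higher and 3.18% lower. At 10 weeks 2 of 80 (2.5%) were higher and 1 (1.25%) lower, beside 1.62% and 4.22% of all genes. These counts are near the shares over all genes. The median log2 ratio of the pathway genes was 0.08 in both comparisons, against -0.02 and -0.03 over all genes. Of the 14 Wnt ligands measured at 4 weeks, Wnt4 included, 1 was higher and 13 were within 2-fold. Wls, the carrier that takes Wnt proteins to the cell surface, read 473 in knockout at 4 weeks and 1162 at 10 weeks, against 866 in wild type. All 3 Wls probe sets were at least 2-fold higher at 10 than at 4 weeks in knockout, with log2 ratios of 1.30 to 1.79. Porcn, which adds the lipid to Wnts, read 354 and 332 in knockout at 4 and 10 weeks and 362 in wild type.

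Receptors and signalling genes were counted between the same knockout and wild-type Sertoli arrays. Of 16 receptors and co-receptors measured, none passed 2-fold at 4 weeks, where 0.681% of all genes were higher and 3.18% lower. That count is near the background. Fzd7, a Frizzled receptor, read 942 in knockout at 4 weeks and 1763 at 10 weeks, against 847 in wild type, a 2.08-fold difference at 10 weeks while its second probe set gave 0.22 in log2. Fzd1 read 573 in knockout at 4 weeks and 1217 at 10 weeks, 2.12-fold higher at the later age, against 1001 in wild type. Bcl9, a beta-catenin co-activator, read 926 and 1719 in knockout at 4 and 10 weeks and 675 in wild type. Beta-catenin itself (Ctnnb1) read 11987 and 10793 in knockout and 10278 in wild type.

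Target genes of beta-catenin were counted on the same arrays. Of 18 measured at 4 weeks, none was at least 2-fold higher and 2 were lower, beside 0.681% and 3.18% of all genes, so a count of 0 higher is near the background. The median log2 ratio was -0.11 at 4 weeks and 0.04 at 10 weeks, against -0.02 and -0.03 over all genes. Lef1, a nuclear partner and target, read 136 in knockout at either age and 122 in wild type, and Lgr5, an R-spondin receptor and target, read 221, 247 and 217 on these arrays. Cd44, a hyaluronan receptor that leukocytes and stromal cells also carry, read 1658 in knockout at 4 weeks and 4146 at 10 weeks, against 3889 in wild type, and its other 3 probe sets had log2 ratios of -1.86 to -0.11 at 4 weeks. Ccn4, a matricellular target, was the other lower gene, at 91.2 in knockout at 4 weeks, below the floor, and 232 in wild type. At 10 weeks none of 18 passed 2-fold, where 1.62% of all genes were higher and 4.22% lower. Myc, a growth regulator, was at a log2 ratio of 0.93.

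Dkkl1, a Dickkopf-like protein of spermatocytes and spermatids, read 505 in knockout Sertoli preparations at 4 weeks and 24.7 at 10 weeks, against 628 in wild type. It was at least 6.28-fold lower at 10 weeks than in wild type, on 1 probe set. The spermatocyte marker sum was 0.115 times wild type on the same 10-week array, and its part in the Dkkl1 value was not tested. The other 9 of 10 secreted inhibitors measured in that comparison were within 2-fold, where 1.62% of all genes were higher and 4.22% lower. In TM4, 1 of 87 pathway genes (1.15%) passed 2-fold, beside 0.303% of all genes higher and 0.421% lower. It was Dkk4, at 49.8 with ERM and 589 without it on 1 probe set. In testis none of 53 pathway genes passed 2-fold, beside 0.532% of all genes higher and 0.852% lower. Both counts are near those shares.

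**Figure D4:**
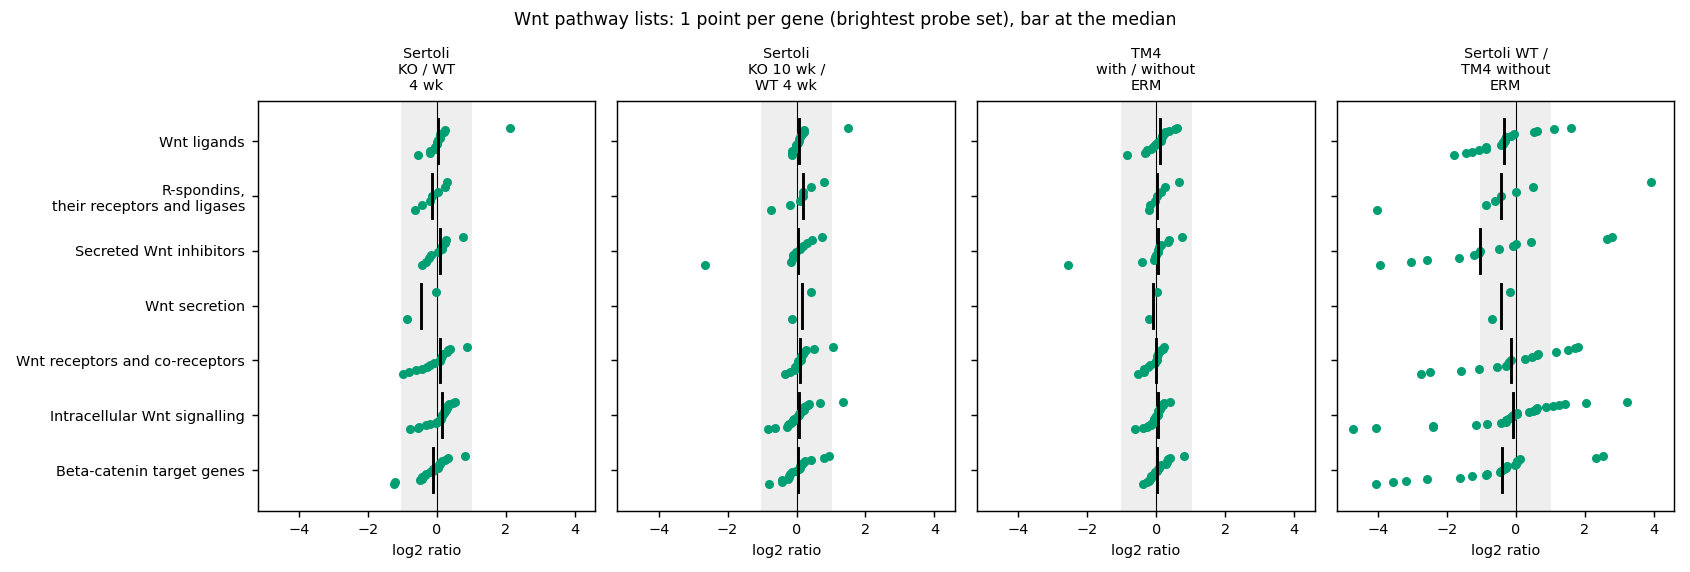
Log2 ratios of Wnt pathway genes by list (rows) in 4 comparisons (columns), 1 point per gene on its brightest probe set, with a black bar at the list median and a grey band over 2-fold. Wnt4 is the point at 2.11 among ligands in knockout over wild-type Sertoli cells at 4 weeks. The points spread widely in wild-type Sertoli cells over TM4, where 16 of 89 non-member genes were at least 2-fold higher and 23 lower.

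Between wild-type Sertoli cells and untransfected TM4 many receptor and effector genes differed. Of 89 non-members measured, 16 (17.98%) were at least 2-fold higher in Sertoli cells and 23 (25.8%) lower, beside 17.8% and 16.1% of all genes. Lgr4, a receptor for R-spondins, read 3387 in Sertoli cells and 225 in TM4, while its relative Lgr6 read 168 in Sertoli cells and 2765 in TM4. Second probe sets of these genes had log2 ratios of -0.55 and -0.87. Frzb, a Wnt-binding inhibitor, read 1130 in Sertoli cells and 164 in TM4 (-0.10 on its other probe set), and Dkk2 37.9 in Sertoli cells and 1530 in TM4. Among ligands Wnt9a read 574 in Sertoli cells and 189 in TM4, and Wnt7b 209 in Sertoli cells and 510 in TM4, with -2.03 on its other probe set. The Frizzled receptors Fzd9 and Fzd2 read 93.3 and 194 in Sertoli cells, against 675 and 1083 in TM4, and the other 2 Fzd2 probe sets had log2 ratios of -3.10 and -0.12. Ryk, a Wnt co-receptor, read 451 in Sertoli cells and 1366 in TM4, with -1.71 and -0.89 on its others. Fzd7 was 2.83-fold higher in Sertoli cells, but -0.69 in log2 on its other probe set. Dkkl1 read 628 in the Sertoli preparation and 66.7 in TM4. Markers of other cell types also differed between these 2 arrays. Spermatocyte markers summed to 12264 in the Sertoli preparation and 1359 in TM4, spermatid markers to 12410 and 4900, and macrophage markers to 12723 and 4567. Fibroblast markers went the other way, at 11568 and 35734. Their part in these ratios was not tested. Daam1, an effector of Wnt to the cytoskeleton, was 9.39-fold higher in Sertoli cells, and its second probe set gave 2.50 in log2.

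Genes of canonical signalling differed in both directions. Of 27 intracellular signalling genes measured, 5 were at least 2-fold higher in Sertoli cells and 5 lower, beside 17.8% and 16.1% of all genes. Both counts are near those shares. The nuclear effector Tcf7l2 read 33.1 in Sertoli cells and 2623 in TM4, but its other 3 probe sets ranged from -1.59 to 0.99. Nkd1, a feedback inhibitor and target, read 117 in Sertoli cells and 1938 in TM4, with -2.77 to 0.19 on 3 others. Ccnd1, the cyclin of G1 phase, read 576 in Sertoli cells and 5241 in TM4, with all 3 probe sets lower in Sertoli cells. Notum, which removes the Wnt lipid, read 45.1 in Sertoli cells and 591 in TM4 on 1 probe set. Apcdd1, a membrane Wnt inhibitor, read 79.4 in Sertoli cells and 1181 in TM4, but its other 4 detected probe sets had log2 ratios of -0.26 to 1.55. Of the 20 targets measured, 6 were lower and 2 higher in Sertoli cells, beside 16.1% and 17.8% of all genes, and Axin2 was not among them. The 2 higher were Id2, a helix-loop-helix inhibitor, and Fst, an activin antagonist, at log2 ratios of 2.52 and 2.31. Csnk1e, a casein kinase of the pathway, read 284 in Sertoli cells and 1507 in TM4, with -2.34 and 2.17 on its other probe sets.

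The genes whose pattern over the 5 Sertoli and TM4 arrays lay nearest to Wnt4 were found by the distance between centred log2 intensities, among 10324 genes that reached 500 on at least 1 array. They were Muc5ac, a gel-forming mucin, at a distance of 0.86, the pseudogene Tes3-ps at 0.94, Exoc3l2 at 0.96, the surface glycoprotein Cd99 at 1.01 and the adhesion receptor Adgrg1 at 1.04. Muc5ac read 675 in knockout Sertoli cells at 4 weeks, 431 at 10 weeks and 182 in wild type, and 224 and 216 in TM4 with and without ERM. Adgrg1 read 620 and 659 in knockout at 4 and 10 weeks, against 373 in wild type. All distances rest on the same 5 arrays.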

How the data were processed

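RNA from 7 mouse samples was measured on 1-colour Affymetrix arrays, 1 array per group as the labels give them. The authors deposited linear intensity values per probe set, with software and scaling not given in the sources used here. Values start at exactly 1 and hold 12488 probe sets for testis and 45101 for Sertoli and TM4 cells.

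Each array was scaled to a mean of 500 taken between percentiles 2 and 98 of its probe sets other than controls. Values under 100, or 0.2 of that mean, were set to 100 before log2 ratios. A ratio with 1 array below this floor is a bound, and none is given with both below. Probe sets naming several genes (932 and 396 on the Sertoli and testis tables) or none (9160 and 1193) and controls (64 and 66) were left out. All member probe sets are reported, and a gene was counted on the one brightest over its table, at 2-fold or more. There was no test, since no group had replicates. The steps were tested on simulated data. Only genes brighter than every member were changed there, so that test does not cover calls at the levels of the members. Promoter windows and gene names come from RefSeq tables.

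The members, lists and rules were chosen with earlier results of these data known. Text names all members, the up to 4 pathway genes per list and comparison that were at least 2-fold apart with a level of 500 or more on the brighter array, and the 5 genes nearest to Wnt4. Other genes (Porcn, Ctnnb1, Lef1, Lgr5, Myc, Ccn4, Id2, Fst, Foxl2, Bmp2, Amh, Espn, Clu, Gata4, Gata1, Rhox5, Acta2, Actg2, Pgk2, Id4, Vil1, Wt1, Nr5a1 and Sox9) were named after their values were seen. Alternatives were the deposited scale, ratios centred on 0, quantile normalization, floors at 0.1 and 0.4, averaging a gene's probe sets and dropping those marked as cross-hybridising. Python 3.11.15, numpy 2.4.6, pandas 2.3.3 and matplotlib 3.10.9 were used.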

Additional observations from a re-analysis of the deposited data

Results flagged for a closer look

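Wnt4 was picked out because its knockout to wild-type ratio had opposite signs in the 2 tissues compared at 4 weeks. The log2 ratio was 2.11 in Sertoli cells (1450782_at) and -0.22 in whole testis (103238_at). The testis value lies within the spread between probe sets of a gene on those arrays, 0.25 log2 units for bright genes and 0.29 over all above the floor. Its sign is therefore not settled, and no reversal between tissues can be read from it. Each is a ratio of 1 array to 1 array on different probe sets, and the difference between them was not tested.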

How the results depend on the processing

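Wnt4 stayed at least 2-fold higher in knockout Sertoli cells under all 7 alternatives, with log2 ratios of 1.65 to 2.13 at 4 weeks and of 1.33 to 1.52 for 10 weeks over wild type. Of 94 recomputed counts of members past 2-fold, 8 moved. Between the knockout ages 1 member, Sfrp1, was counted higher on the deposited scale (1.18) and with a floor of 0.1 (1.13), against 0. For wild-type Sertoli cells over TM4 the 2 lower members became 0 on the deposited scale, 1 with quantile normalization, 1 with the floor at 0.4, 0 with the mean over probe sets and 0 when every detected probe set had to pass, a rule added after seeing the data, and 1 member was counted higher with the floor at 0.1. Sfrp1 reversed there on the deposited scale, at a log2 ratio of 0.45 on 1448395_at, which is then its brightest probe set. Of 303 recomputed single-gene ratios 277 moved by less than the probe set spread of bright genes and 25 by more. No paired analysis was possible because each group had 1 array. Dim members near the floor, such as Wnt5b, Dkk3 and Rspo1, are limited by signal over background.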
